A study of Mus musculus with 7 samples.

Results

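The AP-1 immediate early genes described here are Fos, Fosb, Fosl2, Jun, Junb, Jund and Atf3, 7 of the 19614 genes listed in any of the 7 single-cell libraries. They were chosen by name, as the rows so labelled in each library's count table, and 7 of 7 were found. AP-1 is a dimeric transcription factor built from leucine-zipper proteins. Fos-family proteins (Fos, Fosb and Fosl2, the gene of Fra-2) bind DNA mainly as partners of a Jun-family protein, whereas Jun, Junb and Jund can also pair among themselves. Atf3 encodes a related zipper protein that is induced by cell stress and often represses its targets. Fos, Fosb, Jun, Junb and Atf3 are transcribed within minutes of a stimulus without new protein synthesis. In cortex Fos is widely used as a mark of recently active neurons, and the same genes are induced when tissue is cut and enzymatically dissociated. Jund is known as the family member with the steadiest basal expression.

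Cells came from the motor cortex (MC) and the ventromedial prefrontal cortex (PFC) of B6129SF1/J mice at postnatal day 30, housed in 12 h of light and 12 h of dark, and were sequenced with 10x Genomics 3' chemistry. In DTA mice (Opn4-Cre/+; Brn3b-zDTA/+) Cre expressed from the melanopsin locus switches on diphtheria toxin subunit A from the Brn3b locus, which is designed to remove the intrinsically photosensitive retinal ganglion cells that use both loci. CTRL mice (Opn4-Cre/+; Brn3b-+/+) carry the same Cre allele without the toxin allele, so neither group is a wild type. There was 1 MC DTA library (2373 cells), 1 MC CTRL library (6229 cells), 3 PFC DTA libraries (2623, 3873 and 6072 cells) and 2 PFC CTRL libraries (1936 and 9879 cells). Brains were removed under isoflurane, and area excision and dissociation preceded any measurement, so RNA made during these steps and RNA made before them cannot be told apart.

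Total counts of unique molecular identifiers (UMIs, 1 per captured transcript) ranged from 6180059 to 30972905 per library. Any pair of libraries shared 7 to 92 cell barcodes. The labels do not say that each library came from a separate animal, so p-values measure the spread between these libraries. Cells were clustered without the AP-1 genes and named from marker genes, and each class name stands for cells like that type. The 7 classes with at least 30 cells in every library were excitatory neurons (12907 cells), astrocytes (4167), inhibitory neurons (2902), microglia (2058), oligodendrocytes (2011), endothelial cells (1665) and oligodendrocyte precursors (1252). PFC DTA replicate 3 stood apart: 2206 of the 3165 cells left unnamed were in it, Malat1, a nuclear RNA, had 59870 CPM (UMIs of a gene scaled to a common total of all UMIs) in its excitatory neurons against 20590 to 28370 CPM in the other 6 libraries, and 14 cytokine genes of activated microglia summed to 36760 CPM in its microglia against 3782 to 10850 CPM elsewhere.

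The promoters of 4 members are shown: Fos, Jun and Junb, whose levels varied together across libraries, and Atf3, whose levels followed them less closely. Fosb also varied with them but is not shown, because 73 of the 250 bases of its window lie inside the annotated gene. The sequences are the 250 bases before the RefSeq gene start in GRCm38.p6, written on the gene's own strand, and all 7 members had an entry. Capitals mark matches, on either strand, to the AP-1 site TGANTCA, the cAMP response element TGACGTCA, the shorter core TGACG of that element (which every full element also contains), the TATA box TATAAA or the CArG box bound by serum response factor.
Fos (chr12:85473640-85473889, plus strand): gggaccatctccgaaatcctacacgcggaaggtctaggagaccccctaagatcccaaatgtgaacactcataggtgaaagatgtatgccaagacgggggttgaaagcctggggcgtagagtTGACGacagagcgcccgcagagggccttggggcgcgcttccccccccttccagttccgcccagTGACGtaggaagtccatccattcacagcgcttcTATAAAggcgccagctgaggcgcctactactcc
Jun (chr4:95052223-95052472, minus strand): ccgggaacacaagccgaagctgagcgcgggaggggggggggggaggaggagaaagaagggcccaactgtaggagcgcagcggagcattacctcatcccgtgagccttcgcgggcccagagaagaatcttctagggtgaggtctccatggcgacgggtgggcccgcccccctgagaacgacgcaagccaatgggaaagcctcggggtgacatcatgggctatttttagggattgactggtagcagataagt
Junb (chr8:84978749-84978998, minus strand): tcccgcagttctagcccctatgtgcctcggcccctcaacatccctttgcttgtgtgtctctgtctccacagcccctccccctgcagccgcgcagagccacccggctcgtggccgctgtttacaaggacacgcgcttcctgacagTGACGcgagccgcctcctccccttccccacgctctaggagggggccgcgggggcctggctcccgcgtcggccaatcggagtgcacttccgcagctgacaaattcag
Atf3 (chr1:191183334-191183583, minus strand): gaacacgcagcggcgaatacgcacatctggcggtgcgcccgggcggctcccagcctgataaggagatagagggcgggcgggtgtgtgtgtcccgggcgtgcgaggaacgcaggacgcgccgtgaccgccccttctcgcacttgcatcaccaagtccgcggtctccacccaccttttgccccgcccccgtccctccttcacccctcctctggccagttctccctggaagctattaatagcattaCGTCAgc
The Fos promoter held the core at 129 to 125 and 66 to 62 bases before the start and a TATA box at 33 to 28. Junb held the core at 106 to 102 bases before the start. Atf3 held the core on the opposite strand at 7 to 3 bases before the start. Among the members not printed, Fosb held the core at 60 to 56 bases before the table's start, in the part of its window inside the annotated gene, and Fosl2 and Jund held none of the motifs searched, as in Jun. Of 32851 promoters of the same length, 17.8% held the core, 12.4% the TATA box, 6.75% the AP-1 site, 1.55% the full element and 1.47% the CArG box. A match is a run of letters, and neither its presence nor its absence shows which factor acts on the gene.

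AP-1 levels differed most between cell classes, and the highest levels lay outside neurons. Levels are given as CPM of all UMIs of a class in a library. Fos averaged 1587 ± 342 CPM in endothelial cells, which line blood vessels, and 1263 ± 742 CPM in astrocytes (SD, n = 7 libraries). It averaged 787 ± 134 CPM in oligodendrocytes, 578 ± 507 CPM in their precursors and 464 ± 82.0 CPM in microglia, the resident immune cells. The lowest means were 286 ± 278 CPM in inhibitory neurons and 239 ± 130 CPM in excitatory neurons (SD, n = 7). Neighbours in this order were not all separated: endothelial cells lay above astrocytes in 5 of 7 libraries, astrocytes above oligodendrocytes in 4, precursors above microglia in 2 and inhibitory above excitatory neurons in 2. The means of precursors and inhibitory neurons rested on PFC DTA replicate 3. Without it precursors averaged 389 ± 90.2 CPM, below microglia at 488 ± 57.5 CPM, and inhibitory neurons averaged 189 ± 117 CPM, below excitatory neurons at 202 ± 95.9 CPM (SD, n = 6).

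**Figure D1:**
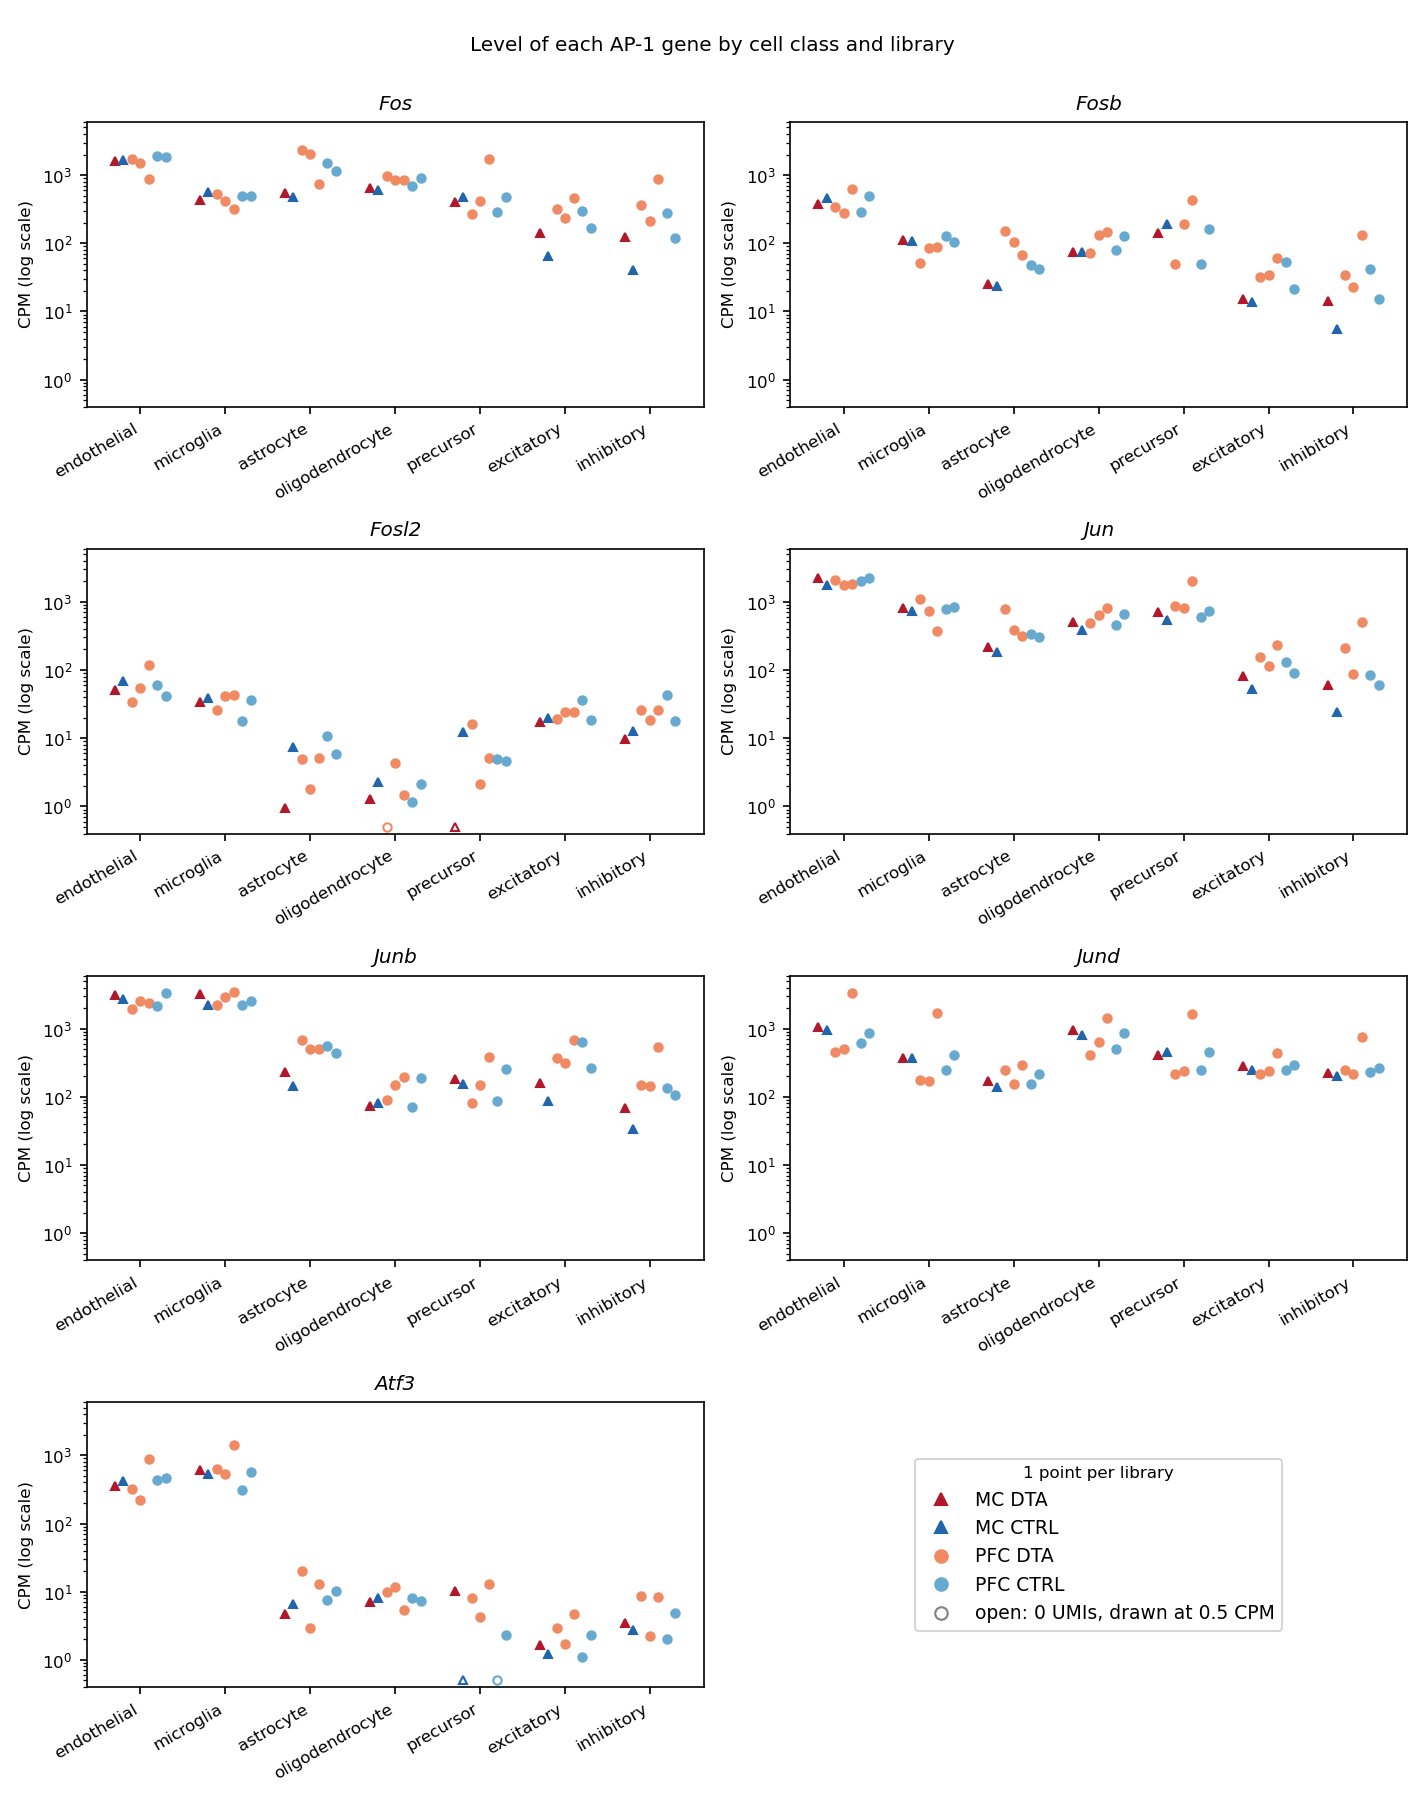
Level of each AP-1 gene (CPM, log axis) in 7 cell classes; each point is a library, coloured by area and genotype. Atf3 lies between 218 and 1393 CPM in microglia and endothelial cells and at most at 20.1 CPM in the other classes, whereas Fos ranges over 65.5 to 458 CPM in excitatory neurons and 480 to 2358 CPM in astrocytes.

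To test these differences, each class was set against the mean of the other 6 with library as a term (edgeR's quasi-likelihood test, adjusted over 11754 genes). Class differences are common at this depth. In endothelial cells 32.0% of all genes were called higher and 37.0% lower, and 7 of 7 AP-1 genes were called higher. Their log2 fold changes there had a median of 2.68, beside -0.12 over all genes. Fos stood 1.88 above the mean of the other classes (SE 0.26, adjusted p = 5.5e-08), Jun 2.66 (SE 0.20, adjusted p = 1.7e-14) and Junb 3.17 (SE 0.21, adjusted p = 2.7e-16), each on the log2 scale.

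Microglia divided the family. Here 27.3% of all genes were called higher, and so were 4 of 7 AP-1 genes: Atf3 by 6.28 (SE 0.13), Junb by 3.44 (SE 0.21), Fosl2 by 2.16 (SE 0.22) and Jun by 1.34 (SE 0.23) on the log2 scale. Fos lay close to the mean of the other classes, though not to each of them (0.06, SE 0.30, adjusted p = 0.87). Fosb and Jund did not pass the test either. Junb averaged 2663 ± 509 CPM in microglia and 2584 ± 503 CPM in endothelial cells, with microglia higher in 5 of 7 libraries. Without PFC DTA replicate 3 the means were 2530 CPM in microglia and 2622 CPM in endothelial cells. The next class, astrocytes, averaged 437 ± 188 CPM (SD, n = 7). Atf3 averaged 652 ± 343 CPM in microglia and 444 ± 213 CPM in endothelial cells, then 9.33 ± 5.81 CPM in astrocytes and 2.24 ± 1.28 CPM in excitatory neurons. Atf3 was thus recorded at appreciable levels in a pair of the 7 classes.

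In excitatory neurons 6 of 7 AP-1 genes were called lower, beside 35.1% of all genes, and in inhibitory neurons 6 of 7 were, beside 35.0%. Jun was the member furthest below the mean of the other classes apart from Atf3, by -2.43 (SE 0.28) in excitatory and -2.53 (SE 0.30) in inhibitory neurons on the log2 scale. Junb split the neurons, at -0.65 (SE 0.26) in excitatory and -2.20 (SE 0.30) in inhibitory neurons. Fosl2, the Fra-2 gene, was the exception and was called higher in both, by 0.85 (SE 0.15) in excitatory and 0.54 (SE 0.19) in inhibitory neurons, beside 43.3% and 38.9% of all genes. Its levels were low, at 22.7 ± 6.45 CPM in excitatory and 22.0 ± 11.1 CPM in inhibitory neurons against 61.3 ± 28.4 CPM in endothelial cells (SD, n = 7).

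The macroglia had patterns of their own. In astrocytes, where 31.8% of all genes were called higher, Fos was the 1 member of 7 called higher (1.27, SE 0.27), while Fosl2, Jund and Atf3 were called lower, beside 33.4% of all genes. In oligodendrocytes, with 33.0% of genes called higher and 41.2% lower, Jund (1.44, SE 0.14), Fos (0.88, SE 0.27) and Jun (0.73, SE 0.23) were higher and Fosl2, Junb and Atf3 lower. In precursors, with 23.3% higher and 24.6% lower, Jun was higher (0.64, SE 0.24), and Fosl2, Junb and Atf3 were lower. Jun averaged 896 ± 505 CPM in precursors and 561 ± 148 CPM in oligodendrocytes (709 and 519 CPM without PFC DTA replicate 3). Fosb, which also yields the stable delta-FosB form by splicing, followed endothelial cells (410 ± 126 CPM) with precursors (173 ± 128 CPM), and averaged 32.9 ± 18.2 CPM in excitatory neurons. Without PFC DTA replicate 3, precursors averaged 130 CPM of Fosb, above the next class, microglia (98.5 CPM), in 4 of 6 libraries. Fosb was then called higher in 3 classes instead of 1, and no share of all genes is given for that fit.

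Related gene lists parted in the same classes. Among 22 general immediate early genes, 20 were called higher in endothelial cells and 20 in microglia, while 15 were called lower in excitatory neurons and 21 in inhibitory neurons. The shares of all genes called that way in those classes were 32.0%, 27.3%, 35.1% and 35.0%. Ier3, a stress-response gene, was 4.98 (SE 0.09) above the other classes in endothelial cells and 4.94 (SE 0.10) in microglia on the log2 scale, and -1.61 (SE 0.13) in excitatory neurons. Egr3, an early growth response factor gene, was among the 5 of that list called higher in excitatory neurons (2.61, SE 0.18). Among 20 activity-induced neuronal genes, 17 were called higher in excitatory neurons, beside 43.3% of all genes, and the smallest p-values were those of Bdnf, a secreted growth factor (3.54, SE 0.13), Homer1, a synaptic scaffold gene (2.54, SE 0.10), and Nptx2, a secreted pentraxin (2.73, SE 0.14). Npas4 and Arc, chosen as examples after their values had been seen, were 3.88 (SE 0.17) and 2.68 (SE 0.22) higher there. In endothelial cells 5 and in microglia 4 of those 20 were called higher, shares of the list below those over all genes. Of 10 other AP-1 and bZIP partners tested, 5 were called higher in endothelial cells and 7 in microglia, beside 32.0% and 27.3% of all genes. Maff, a small Maf protein gene, was 4.35 (SE 0.18) higher in endothelial cells, 4.63 (SE 0.19) higher in microglia and -4.30 (SE 0.27) in excitatory neurons.

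Detection per cell was compared after thinning every cell to 1000 UMIs, because median depth differed between classes and libraries. Cells below 1000 UMIs were left out, 5.46% of MC DTA, 11.4% of MC CTRL, 13.2% of PFC DTA and 13.1% of PFC CTRL cells, all tested classes pooled. The loss was uneven: PFC DTA replicate 1 kept 186 of 377 astrocytes, 73 of 141 microglia and 29 of 132 precursors. A Jun UMI was then found in a median of 73.0% of endothelial cells over the 7 libraries (range 64.5% to 80.7%), 44.8% of microglia and 8.59% of excitatory neurons. A Junb UMI was found in 79.4% of microglia, 75.7% of endothelial cells and 24.0% of excitatory neurons. A Fos UMI was found in 59.2% of endothelial cells (range 37.4% to 64.4%), 35.3% of astrocytes (16.4% to 58.1%) and 16.6% of excitatory neurons (5.18% to 22.4%). Unthinned, the Fos share was 45.8% in excitatory neurons, the deepest class in 6 of 7 libraries, and 61.7% in endothelial cells. Newly formed oligodendrocytes, the class with the lowest Fos share, had a Fos UMI in a median of 6.67% of thinned cells (0% to 12.7%), and the shares in MC excitatory neurons, 8.96% in DTA (95% exact binomial interval 6.97% to 11.3%) and 5.18% in CTRL (4.33% to 6.15%), lay within that range. That range pools the libraries. As levels, Fos ranged from 8.65 to 117 CPM in newly formed oligodendrocytes. Excitatory neurons lay above this range in MC DTA (139 CPM) and within it in MC CTRL (65.5 CPM). The part of free RNA in those neuronal shares was not tested.

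Atf3 had the sharpest split per cell. An Atf3 UMI was found in a median of 39.7% of thinned microglia and 25.9% of endothelial cells, against 0.187% of excitatory neurons, 0.314% of inhibitory neurons and 0.601% of astrocytes. In PFC CTRL replicate 1, 0 of 739 thinned excitatory neurons had one, against 9 of 745 (1.21%) before thinning. Jund, with the least contrast among classes, was found in medians of 55.8% of oligodendrocytes, 46.3% of endothelial cells, 20.1% of excitatory neurons and 13.5% of astrocytes.

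**Figure D2:**
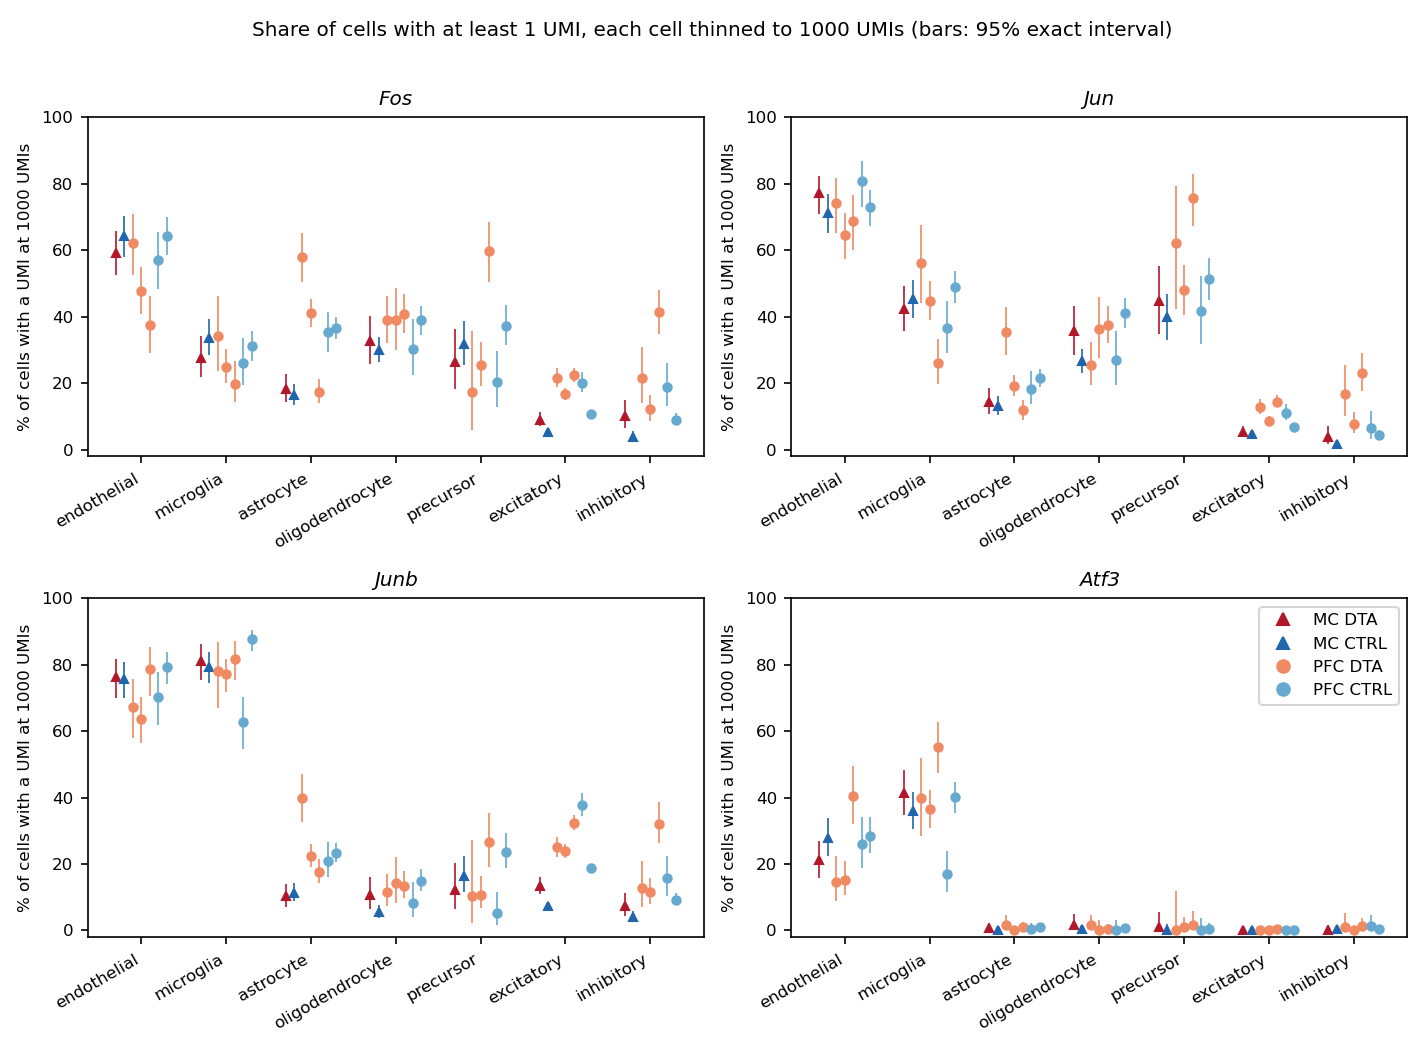
Share of cells (%) with at least 1 UMI of Fos, Jun, Junb or Atf3 after thinning to 1000 UMIs per cell, by cell class and library. Junb reaches 62.7% to 87.6% of microglia, and Atf3 stays under 2% in the 5 classes shown other than microglia and endothelial cells.

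Fos, Fosb, Jun and Junb were found together in cells more often than their separate shares give. For each pair among these 4 genes in each of the 7 classes, 42 in all, the median ratio of the observed to the expected joint share was above 1. Over all pairs of members it was so in 90 of 93, and the lowest was 0.91 for Fosl2 with Jun in microglia. A library entered only where enough cells with both genes were expected, so some medians rest on 1 library. Among these were Fos with Jun in inhibitory neurons, Fosb with Jun in excitatory neurons and Fosb with Junb in oligodendrocytes. Pairs of other genes were not examined, so these counts have no background share. In excitatory neurons the share of thinned cells with both Fos and Junb was 1.76 times the product of the single shares (median of 7 libraries, range 1.42 to 2.21), and for Fos with Jun it was 1.92 times (6 libraries). In astrocytes these ratios were 2.0 and 1.97. In endothelial cells, where most cells had each transcript, they were 1.18 and 1.16. Fos with Jund gave 1.18 in excitatory neurons. Cells of a library share their dissociation, and subtypes within a class also raise such a ratio, so it is given without a test.

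Between areas, the fitted differences of AP-1 genes lay below 0 (lower in the MC than in the PFC) in astrocytes and neurons, and 1 gene in 1 class passed the test. In astrocytes Junb stood at 229 CPM in MC DTA and 144 CPM in MC CTRL, against 682, 503 and 504 CPM in PFC DTA and 557 and 440 CPM in PFC CTRL. Both MC libraries lay below all 5 PFC libraries. The fall was -1.51 on the log2 scale (SE 0.24, adjusted p = 0.017, edgeR over all genes with genotype as a term), in a comparison that called 0.208% of 10074 genes. The call was lost on leaving out PFC DTA replicate 1 (-1.43, adjusted p = 0.058), MC CTRL (-1.29, adjusted p = 0.98) or MC DTA (-1.76, adjusted p = 0.33), and without PFC DTA replicate 3 it held (-1.57, adjusted p = 0.0089), with 2 members called instead of 1.

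Fos in astrocytes stood at 544 CPM in MC DTA and 480 CPM in MC CTRL, against 2358, 2051 and 739 CPM in PFC DTA and 1517 and 1150 CPM in PFC CTRL. The areas again did not overlap, but with PFC DTA replicate 3 near the MC the difference of -1.56 (SE 0.49) had an adjusted p of 0.49. DESeq2 called Fos and Junb, beside 0.328% of all genes. All 6 members tested in astrocytes were below 0, with a median of -1.24 on the log2 scale beside -0.01 over all genes. Of 20 general immediate early genes tested in astrocytes 0 passed, with a median of -1.08, and the smallest p was that of Btg2, an antiproliferative gene (-1.67, SE 0.38, adjusted p = 0.25).

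In excitatory neurons Fos stood at 139 CPM in MC DTA and 65.5 CPM in MC CTRL, against 313, 233 and 458 CPM in PFC DTA and 297 and 167 CPM in PFC CTRL. Junb stood at 161 CPM in MC DTA and 86.2 CPM in MC CTRL, against 367, 318 and 668 CPM in PFC DTA and 633 and 267 CPM in PFC CTRL. For both genes each MC library lay below each PFC library. The log2 differences were -1.51 for Fos (SE 0.35, adjusted p = 0.052), -1.88 for Junb (SE 0.51, adjusted p = 0.11), -1.04 for Jun (SE 0.28, adjusted p = 0.079) and -1.48 for Fosb (SE 0.45, adjusted p = 0.14), in a class where 5.37% of all genes were called. So 0 of 7 members passed in edgeR, and 4 did at an unadjusted p under 0.05, which 17.7% of all genes met. DESeq2 called the same 4 members (Fos, Fosb, Jun and Junb), beside 6.75% of all genes. The median of all 7 was -1.04, beside -0.01 over all genes, and Jund differed least (-0.10, SE 0.24).

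The groups of a gene can also be read without a model. In both astrocytes and excitatory neurons, Fos, Fosb, Jun and Junb were lower in each MC library than in each PFC library, 4 of 6 members tested in astrocytes and 4 of 7 in excitatory neurons. Of all genes tested, 7.97% and 10.9% were so separated. In inhibitory neurons Fosb, Fosl2 and Junb were, 3 of 7 members beside 9.17% of all genes, and in oligodendrocytes Fos was, 1 of 6 beside 4.25%. In endothelial cells, microglia and precursors 0 members were separated in either direction. Of all genes in these classes, 2.83%, 2.02% and 5.14% lay below in the MC and 2.42%, 3.22% and 3.60% above. With so few members, 0 is near these shares.

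Inhibitory neurons had wider spreads. Fos stood at 122 CPM in MC DTA and 40.4 CPM in MC CTRL, against 360, 214 and 867 CPM in PFC DTA and 276 and 120 CPM in PFC CTRL, so that the areas overlapped. All 7 members were below 0, with a median of -1.93, and 0 passed, beside 2.08% of all genes called. The smallest adjusted p was that of Fosl2 (-1.17, SE 0.33, adjusted p = 0.091). In endothelial cells Fos was at 1618 CPM in MC DTA and 1672 CPM in MC CTRL, against 1738, 1479 and 875 CPM in PFC DTA and 1886 and 1839 CPM in PFC CTRL, a log2 difference of 0.08 (SE 0.26). Junb there differed by 0.25 (SE 0.22). In microglia Fos differed by 0.12 (SE 0.26) and Atf3 by -0.13 (SE 0.40). In endothelial cells, microglia and precursors 0 genes of any kind were called. In oligodendrocytes 1 gene was (0.0106%), which is not a member.

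The area effect in a class was then compared directly with that in endothelial cells of the same libraries, a test added after the data had been seen. In astrocytes the difference was -1.54 for Fos (SE 0.24, adjusted p = 0.0072) and -1.73 for Junb (SE 0.27, adjusted p = 0.015), 2 of the 7 members, beside 0.0569% of 10548 genes called. Fos lost the call without PFC DTA replicate 1 (adjusted p = 0.052), MC CTRL (0.19) or MC DTA (1), and Junb without MC CTRL or MC DTA. In excitatory neurons Fos differed by -1.55 (SE 0.48, adjusted p = 0.92) and Junb by -2.05 (SE 0.56, adjusted p = 0.85), and 0 members passed, beside 0.0390% of all genes. In inhibitory neurons and microglia 0 genes were called (469 and 210 at an unadjusted p under 0.05).

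Levels were also compared within neuron clusters, as values with no test, a comparison added after the data had been seen. In the excitatory cluster led by Dkkl1 and Tnnc1, Fos stood at 171 CPM in MC DTA and 99.4 CPM in MC CTRL, against 280, 227 and 560 CPM in PFC DTA and 310 and 201 CPM in PFC CTRL. In that led by Myh7 and Smoc2 it stood at 55.1 CPM in MC DTA and 42.4 CPM in MC CTRL, against 308, 267 and 407 CPM in PFC DTA and 346 and 183 CPM in PFC CTRL. The areas did not overlap in either. In the cluster led by Foxp2 and Syt6 they did: MC DTA stood at 226 CPM and MC CTRL at 54.0 CPM, against 322, 259 and 512 CPM in PFC DTA and 269 and 119 CPM in PFC CTRL. Log2 ratios of the mean MC to the mean PFC level were -1.22, -2.63 and -1.08 in the 3 clusters. In the inhibitory cluster led by Vip the areas overlapped, with 177 CPM in MC DTA and 78.7 CPM in MC CTRL against 133 to 954 CPM in the PFC (log2 ratio -1.71). In that led by Pvalb they did not, with 81.2 CPM in MC DTA and 22.0 CPM in MC CTRL against 106 to 1254 CPM (log2 ratio -3.09).

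**Figure D3:**
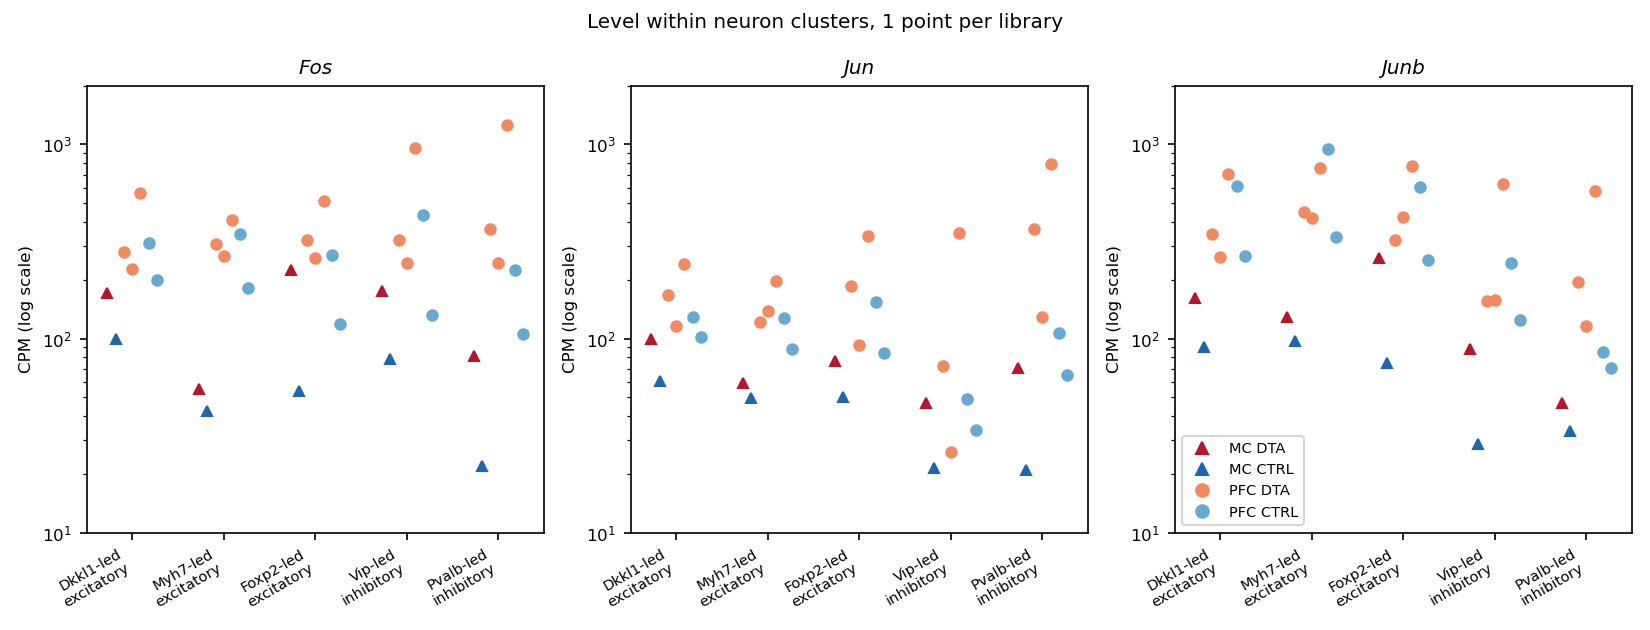
Level of Fos, Jun and Junb (CPM, log axis) by library within the excitatory and inhibitory clusters that had enough cells in every library. In the excitatory clusters led by Dkkl1 and by Myh7, the MC points lie below the PFC points.

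Of other measures compared between areas, the mitochondrial sum separated them in astrocytes and excitatory neurons, and the rest overlapped. Their part in the result was not tested. Mitochondrially encoded genes summed to 59980 CPM in MC DTA and 62390 CPM in MC CTRL astrocytes, against 40100 to 48420 CPM in PFC astrocytes, and to 38710 and 46200 CPM in MC excitatory neurons against 30520 to 38320 CPM in those of the PFC. Heat shock and stress genes overlapped between areas in astrocytes, at 3728 CPM in MC DTA and 4548 CPM in MC CTRL against 4229 to 5816 CPM in the PFC. The share of astrocytes in the cluster led by Slc7a10 was 4.32% in MC DTA and 73.1% in MC CTRL, against 12.6% to 84.9% in the PFC libraries. Markers of microglia and endothelial cells, the classes with the highest Junb, summed to 85.5 and 50.8 CPM in MC DTA astrocytes and 87.8 and 47.7 CPM in MC CTRL astrocytes, against 67.4 to 153 CPM and 16.8 to 60.2 CPM in PFC astrocytes.

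Among 98 genes of the related lists tested in excitatory neurons 6 were called between areas, 6.12% beside 5.37% of all genes, a share near the background. Gadd45g, a growth arrest and DNA damage-inducible gene, fell by 1.87 on the log2 scale (SE 0.27, adjusted p = 0.0037) and Klf4, a zinc-finger transcription factor gene, by 2.0 (SE 0.43, adjusted p = 0.035). Rgs2, a G-protein signalling regulator, fell by 0.57 and Mapk3, the gene of the kinase ERK1, by 1.07 (adjusted p = 0.022 and 0.012). Jdp2, an AP-1 repressor that dimerizes with Jun, rose by 1.06 (SE 0.25, adjusted p = 0.032), and Inhba, an activin subunit gene, rose by 0.60 (adjusted p = 0.030). In inhibitory neurons 2 of 86 list genes were called, 2.33% beside 2.08% of all genes. Klf6 fell by 0.90 and Nr4a2, an orphan nuclear receptor gene, by 2.11 (adjusted p = 0.025 and 0.014). Npas4 and Arc, used as marks of neuronal activity, gave -1.47 (SE 0.37, adjusted p = 0.077) and -1.56 (SE 0.87, adjusted p = 0.46) in excitatory neurons.

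**Figure D4:**
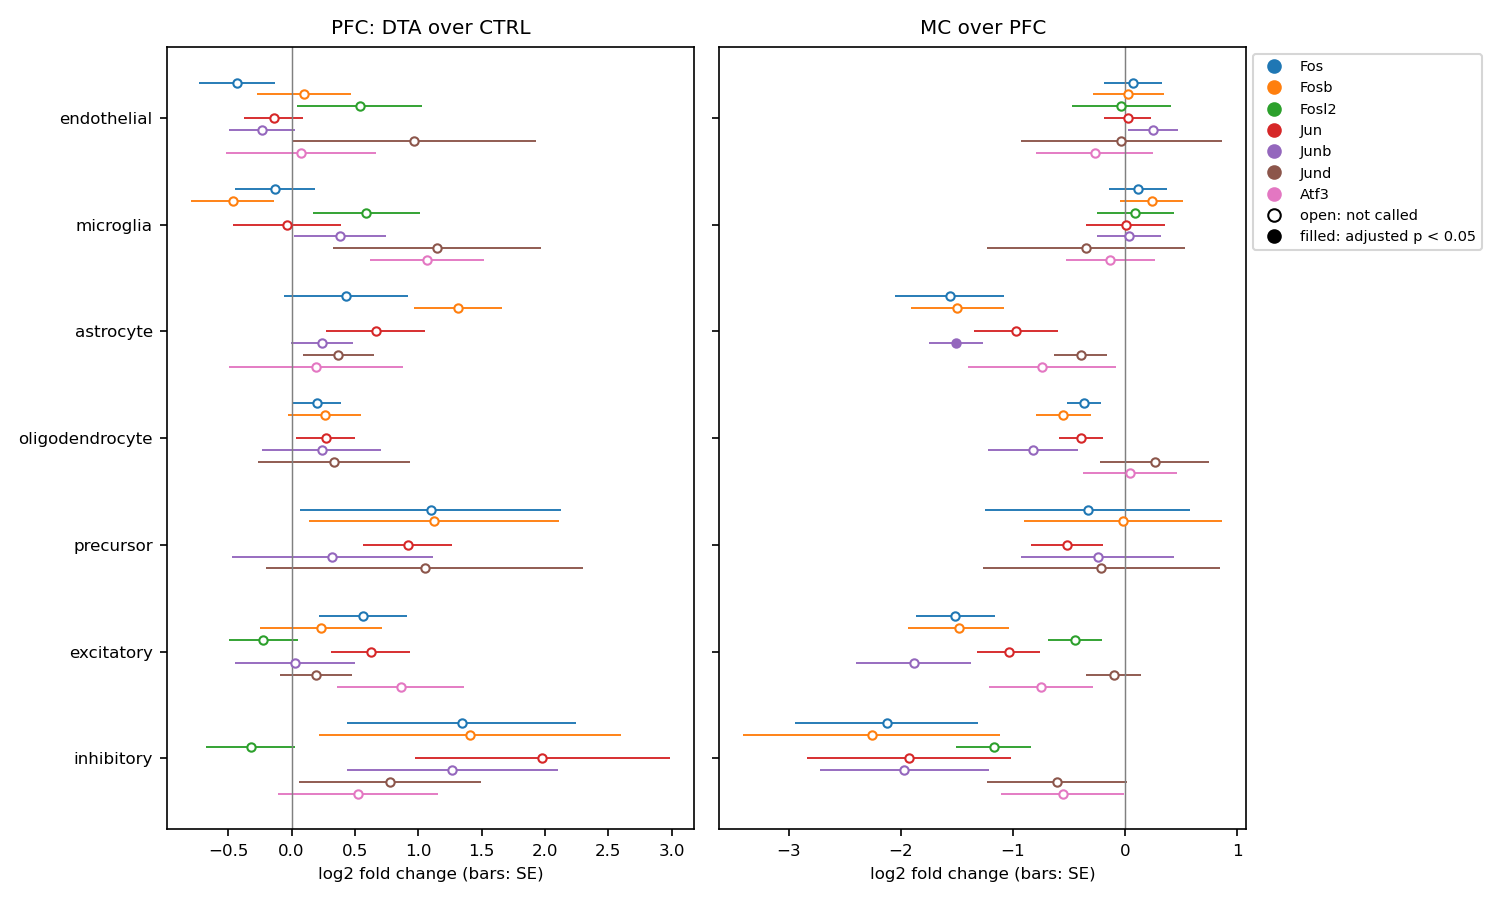
Log2 differences of the AP-1 genes with their SE, MC over PFC and, within the PFC, DTA over CTRL, by cell class. In the area comparison the neuron and astrocyte values lie below 0 and those of endothelial cells and microglia near it; filled points mark adjusted p under 0.05, which holds for Junb in astrocytes.

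The DTA genotype was tested against CTRL within the PFC, and 0 members passed in any of the 7 classes. The comparison called 0 genes in each class (0 percent), with 114 genes in microglia to 429 in inhibitory neurons at an unadjusted p under 0.05, and DESeq2 called 0 apart from 1 gene in astrocytes. The member with the smallest unadjusted p was Fosb in astrocytes. It stood at 153, 104 and 66.2 CPM in PFC DTA against 47.5 and 41.2 CPM in PFC CTRL. The 3 DTA libraries lay above both CTRL libraries, as in 4.88% of all genes in this class, with a log2 fold change of 1.32 (SE 0.35, adjusted p = 0.9996).

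In excitatory neurons Fos stood at 313, 233 and 458 CPM in PFC DTA against 297 and 167 CPM in PFC CTRL, and the genotypes overlapped (log2 fold change 0.56, SE 0.35, adjusted p = 1). Jun stood at 158, 115 and 229 CPM in DTA against 132 and 90.2 CPM in CTRL (0.62, SE 0.31), and the value without PFC DTA replicate 3 was 0.33. In inhibitory neurons Jun stood at 210, 87.3 and 511 CPM in DTA against 85.0 and 59.9 CPM in CTRL. The DTA libraries lay above the CTRL libraries for Jun and Junb, 2 of 7 members beside 6.37% of all genes. The log2 fold change of Jun was 1.98 (SE 1.01), and 0.92 without PFC DTA replicate 3. Atf3 in microglia stood at 624, 536 and 1393 CPM in DTA against 306 and 576 CPM in CTRL (1.07, SE 0.45, 0.52 without PFC DTA replicate 3). In endothelial cells Fos gave -0.43 (SE 0.30) and Jun -0.14 (SE 0.23). Members separated the other way were Fos in endothelial cells and Fosb in microglia, each DTA library below each CTRL library, 1 of 7 members in each class beside 8.43% and 14.1% of all genes. In precursors Jun lay above, 1 of 5 beside 7.43%. In excitatory neurons and oligodendrocytes 0 members were separated. Of all genes there, 9.39% and 12.2% lay below in DTA and 4.92% and 5.04% above. None of the genes in the other 6 lists passed either, and in excitatory neurons Klf4 (1.27, SE 0.36, adjusted p = 1) had the smallest p among general immediate early genes. These errors leave room for differences of either sign, so equal levels are not shown.

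In the MC there was 1 library of each genotype, so the spread within a genotype was not measured and the values are given without a test of their own. Fos in excitatory neurons was at 139 CPM in DTA and 65.5 CPM in CTRL, a log2 ratio of 1.09 (exact Poisson interval 0.97 to 1.20, which covers counting error only). In inhibitory neurons the ratio was 1.59 (1.28 to 1.91) and in astrocytes 0.18 (0.01 to 0.35). Junb in excitatory neurons gave 0.90 (0.80 to 1.0), and Jund 0.21 (0.14 to 0.28). The MC libraries also differed in depth, with a median of 4752 UMIs per cell in DTA and 2642 in CTRL. Their cluster make-up differed too. The cluster led by Dkkl1 held 39.5% of DTA and 24.9% of CTRL excitatory neurons. That led by Ccl4 held 85.9% of DTA and 3.18% of CTRL microglia. The part of these differences in the ratios was not tested. The genotype effect in the MC minus that in the PFC, tested in edgeR over the libraries of both areas, passed for 0 members and 0 genes in any class (77 to 178 genes at an unadjusted p under 0.05). Fosb in astrocytes had the smallest unadjusted p among members (-1.20, SE 0.72, adjusted p = 0.9999).

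PFC DTA replicate 3 had a pattern of its own among AP-1 genes. Its Fos level was the highest of 7 libraries in excitatory neurons (458 CPM), inhibitory neurons (867 CPM) and precursors (1713 CPM, against 269 to 481 CPM in the others), and the lowest in endothelial cells (875 CPM) and microglia (321 CPM). Jun in its microglia, at 370 CPM, was likewise below the 735 to 1087 CPM of the others. Jund was above the class mean in 7 of 7 classes of this library. In endothelial cells Jund stood at 3280 CPM there against 458 to 1049 CPM in the other libraries, and in microglia at 1665 CPM against 168 to 407 CPM.

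Over the 49 class by library levels, class accounted for 70.5% of the sum of squares of log2 Fos and library for 7.80%. For Jun the shares were 84.4% and 6.01%, for Junb 87.0% and 5.53%, and for Atf3 94.1% and 2.48%. The medians over 7828 genes were 77% and 5.97%. Jund departed from this, with 57.8% for class and 32.5% for library, and without PFC DTA replicate 3 it had 82.2% and 9.09%.

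After each class's mean had been taken out, Fos, Fosb, Jun and Junb kept together across the 49 levels. Pearson's r with Fos was 0.89 for Jun, 0.85 for Junb and 0.84 for Fosb, against 0.27 for Jund, 0.26 for Atf3 and 0.08 for Fosl2. Atf3 had an r of 0.40 with Jun and 0.34 with Junb. Atf3 and Fosl2 had few counts in several classes, so counting error adds to their deviations. In precursors they had 0 to 5 and 0 to 4 UMIs per library. Among 7821 genes ranked, the 10 most like Fos that are no members were Klf4 (r = 0.85), Btg2 (0.83), Dusp1 (0.79), Ier2 (0.78), Prdx2 (0.73), Cnbp (0.71), Ppp1r15a (0.70), Nr4a1 (0.69), Gadd45g (0.68) and Gabarapl2 (0.65). Of these Btg2, Dusp1, Ier2, Klf4, Nr4a1 and Gadd45g are general immediate early genes, and Ppp1r15a belongs to the stress list. Egr1, an early growth response gene, ranked 11 (0.65). The ranked genes of the activity-induced list ran from Gadd45b at 15 (0.64) to Homer1 at 6754 (-0.21). Between them, Arc ranked 133 (0.47) and Npas4 273 (0.40). Those of the heat shock and stress list ran from Ppp1r15a at 7 to Hspb1 at 4795 (-0.07). Between them, Hsp90ab1 ranked 47 (0.55) and Hspa1a 71 (0.52). The genes named between the ends of a list are examples. Arc and Npas4 were higher in excitatory neurons than in the other classes, and the ranks pool neuronal and other classes. The ranks therefore do not show whether Fos followed neuronal activity or dissociation. Points of a library share its dissociation and depth, and points of a class share its cells, so these are descriptions.

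**Figure D5:**
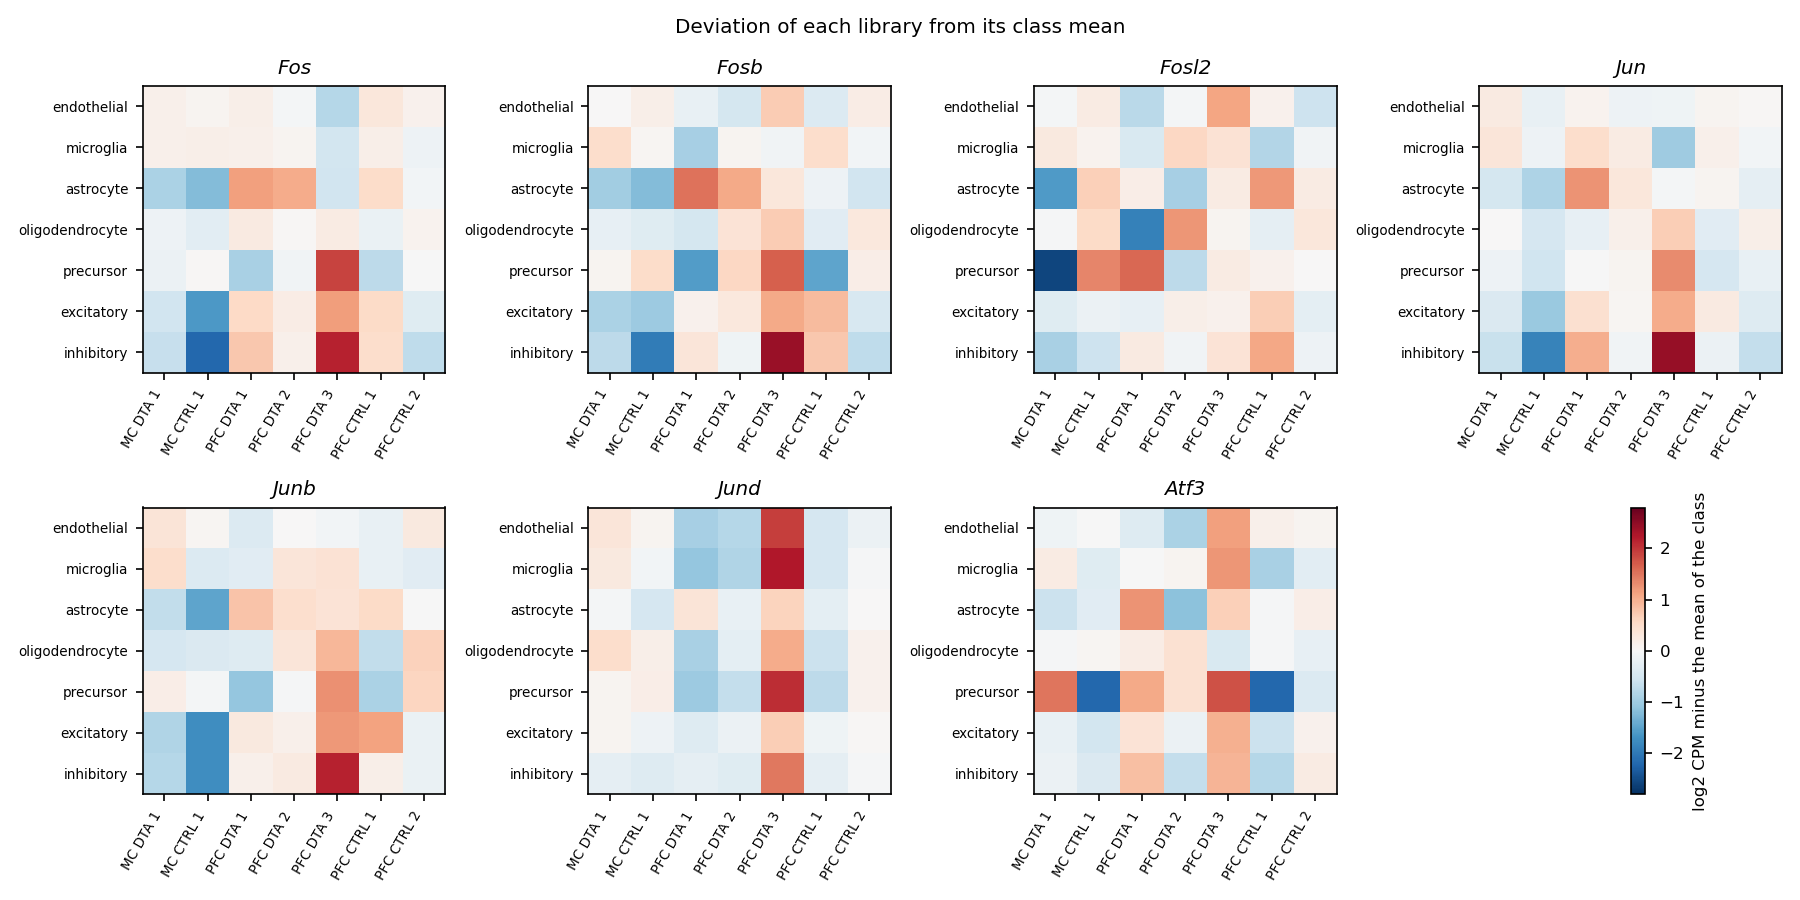
Deviation of each AP-1 gene (log2) from its class mean, by library and class. PFC DTA replicate 3 is above the mean for Jund in 7 of 7 classes, and the MC libraries are below it for Fos, Jun and Junb in both neuron classes and astrocytes.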

How the data were processed

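The 7 deposited tables hold whole-number counts of UMIs per gene and cell, 1 table a library, made by the authors from 10x Genomics 3' libraries. The submitters' processing notes list Cell Ranger 3.0.2, Seurat and mm10. Filters, the annotation and strand settings are not given in the sources used here. In each library the poorest cell had at least 501 genes, so the filter of 200 genes and 20% mitochondrial counts removed 0 cells.

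Doublets were called per library with Scrublet in scanpy 1.11.5 (26 in MC DTA, 178 in MC CTRL, 68, 56 and 295 in PFC DTA, 23 and 418 in PFC CTRL) and removed. In PFC DTA replicate 3 the automatic threshold called 0 cells, and the top-scoring 0.8% per 1000 cells were taken. One clustering took the cells of every library, uncorrected for batch (2000 variable genes, 30 principal components, 20 neighbours, leidenalg 0.10.2 at resolution 1.0, seed 1), with 95 AP-1, immediate early, activity, stress, cytokine and bZIP genes left out of the variable genes. Clusters were named from markers (at least 3 at 20 CPM and 2-fold). They stayed unnamed where a second class passed a level of 0.45, set after the clusters had been seen, or where over 50% of cells were doublets. They also stayed unnamed where leading genes were markers of another class. The same held where depth was under 0.333 of the library median and no own marker was among the leading genes.

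For each class and library the counts of its cells were added up. After filterByExpr (10 counts) and TMM scaling, edgeR 4.0.16 was run (robust quasi-likelihood, R 4.3.3) with Benjamini-Hochberg adjustment within each class over all genes tested, at 0.05. The PFC genotypes used the 5 PFC libraries, area used 7 libraries with genotype as a term, and class used 49 sums with library as a term. The SE is the absolute log2 fold change over the square root of F. The second tool was DESeq2 1.42.0. The fits were tested on simulated counts. Intervals are exact at 95% confidence and cover counting error only. Likeness is Pearson's r of class-centred log2 CPM over genes at 20 CPM or more. All 7 members are named, from each list up to 3 called genes each way by smallest p or the 2 with the smallest p, and the 10 genes most like Fos. Others are said to be chosen after their values were seen. Promoters come from RefSeq (GRCm38.p6).

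The members, the 7 gene lists, the markers and the tests were chosen with earlier results of these data known. Alternatives were other size factors, no filter, no robust estimate, doublets kept, resolutions of 0.5 and 2.0, a replicate block, no genotype term, the library total as scale, and each library left out.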

Additional observations from a re-analysis of the deposited data

Results flagged for a closer look

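The area difference of a pair of AP-1 genes differed between astrocytes and endothelial cells of the same libraries. For Fos the log2 difference MC over PFC was -1.56 in astrocytes and 0.08 in endothelial cells, and the difference between the classes was -1.54 (SE 0.24, adjusted p = 0.0072, edgeR over 10548 genes). For Junb it was -1.51 in astrocytes and 0.25 in endothelial cells, a difference of -1.73 (SE 0.27, adjusted p = 0.015). The test was added after the data had been seen and rests on 1 MC library of each genotype. Leaving out either MC library ended both calls, as leaving out PFC DTA replicate 1 did for Fos. The mitochondrial sum, which was also higher in MC astrocytes than in PFC astrocytes, was 23970 CPM in MC DTA and 31750 CPM in MC CTRL endothelial cells, against 23840 to 27070 CPM in those of the PFC, and its part in the difference was not tested.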

How the results depend on the processing

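The genotype comparison in the PFC called 0 genes in each class as reported. Without the filter on low counts it called 26 genes in astrocytes (1 of them a member), 3 in endothelial cells, 16 in inhibitory neurons, 7 in microglia, 29 in oligodendrocytes and 6 in precursors. With a replicate block it called 1 gene in astrocytes, 21 in endothelial cells, 3 in excitatory neurons, 34 in inhibitory neurons (1 of them a member), 1 in microglia, 4 in oligodendrocytes and 5 in precursors. The block joins 2 replicate numbers that the genotypes share, and same-numbered libraries did not deviate together in every class (correlations of -0.21 to 0.31), so the number is not taken as a pairing. DESeq2 called 1 gene, in astrocytes. With 1 library left out, the counts ranged from 0 to 7 in astrocytes, 0 to 2 in endothelial cells, 0 to 9 in excitatory neurons, 0 to 35 in inhibitory neurons, 0 to 136 in oligodendrocytes (0 to 1 member) and 0 to 45 in precursors.

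For area, no filter gave 132 genes in astrocytes, 5 in endothelial cells, 486 in inhibitory neurons, 1 in microglia, 21 in oligodendrocytes and 4 in precursors, with 4 members called in astrocytes and 1 in inhibitory neurons. The test that is not robust gave 11 genes in astrocytes and 2 in oligodendrocytes, with 4 members in excitatory and 2 in inhibitory neurons. DESeq2 gave 33 genes in astrocytes and 2 in oligodendrocytes, with 2 members in astrocytes and 4 in excitatory neurons. Without a genotype term 13 genes were called in astrocytes and 0 in oligodendrocytes. With doublets kept 2 members were called in astrocytes, 1 in excitatory neurons, and 0 genes in oligodendrocytes. With 1 library left out the counts ranged from 4 to 39 in astrocytes, 88 to 839 in excitatory neurons, 15 to 428 in inhibitory neurons and 0 to 19 in oligodendrocytes, and members from 0 to 2 in astrocytes, 0 to 2 in excitatory and 0 to 1 in inhibitory neurons. Fosb in microglia, 0.24 over all libraries, was -0.12 without MC DTA and 0.54 without MC CTRL. The area effect minus that in endothelial cells called 4 members in excitatory and 4 in inhibitory neurons without the filter, and 0 to 3 in astrocytes and 0 to 1 in excitatory neurons with 1 library left out. Member counts given here without a count of all genes in that setting have no background share beside them. The cause of these changes was not tested.

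Fosb was called higher in 1 class, and in 2 with RLE factors, 3 without the robust estimate, 2 with doublets kept, 3 at resolution 0.5 and 1 to 3 with a library left out. At resolution 0.5, which gave no endothelial class, Junb and Atf3 were each higher in 1 class and Atf3 lower in 3. The shares of all genes called in these settings are not given. The class share of Atf3's sum of squares was 92.9% with the library total as scale. With a library left out, class and library shares ranged over 66.5% to 82.8% and 4.76% to 9.13% for Fos, 68.1% to 79.8% and 2.36% to 10.1% for Fosb, 78.7% to 84.3% and 1.59% to 4.67% for Fosl2, 82.1% to 92.2% and 3.72% to 7.0% for Jun, 85.2% to 91.0% and 2.59% to 6.54% for Junb, 52.1% to 82.2% and 9.09% to 37.4% for Jund, and 93.5% to 95.2% and 1.37% to 2.89% for Atf3.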

Other observations

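Beyond the classes tested, the levels of cells around vessels lay above those of endothelial cells for some AP-1 genes and below them for others, as values with no test. In pericytes, the contractile cells around capillaries, Fos ranged from 1643 to 3621 CPM over the 7 libraries (median 2312 CPM), Fosb from 478 to 1330 CPM and Junb from 1100 to 6175 CPM. In smooth muscle cells Fosl2 ranged from 146 to 576 CPM, against at most 120 CPM in endothelial cells. Median Jun levels were 1231 CPM in pericytes and 617 CPM in smooth muscle cells, against 2027 CPM in endothelial cells. Pericytes had medians of 209 CPM of Atf3 and 42.6 CPM of Fosl2, against 416 and 54.2 CPM in endothelial cells. In perivascular macrophages Fos had a median of 826 CPM, against 1672 CPM in endothelial cells, and Atf3 ranged from 365 to 1094 CPM. These classes had as few as 10 cells in a library, and newly formed oligodendrocytes, with at least 25, had Fos at 8.65 to 117 CPM.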
